A study of Mus musculus with 2 samples.

Results

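A stretch of mouse chromosome 17 that carried about 2 times its surroundings' read density in 1 of the 2 libraries, and not in the other, was examined in bins of 10 kb. The window ran from 29600001 to 32100000, as the files count positions, and held 250 bins, of 247239 such bins on chromosomes 1 to 19. The central 500 kb, from 30600001 to 31100000, were taken as the core (50 bins), and the 1000 kb on either side as the flanks (200 bins). The core had been picked out because the libraries differed there in bins of 100 kb, so its level and its ratio are described and not tested. Both libraries came from chromatin immunoprecipitation followed by sequencing (ChIP-seq) with an antibody against Tnni2, the fast skeletal muscle troponin I, in primary osteoblasts of 129sv mice. The mutant mice carried the del175k allele of Tnni2 on both chromosomes, and wild-type littermates were their controls. According to the series text n was 3, with nothing said of pooling, so there was 1 library per genotype and no replicate check. The libraries held 3003795 (mutant) and 2920353 (wild-type) distinct positions, a distinct position being 1 combination of chromosome, 5′ end and strand.

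Some inbred mouse strains carry a tandem duplication on chromosome 17 that includes Glo1, and others, C57BL/6J among them, do not. Glo1 encodes glyoxalase 1, the enzyme that uses glutathione to detoxify methylglyoxal, a reactive by-product of glycolysis, and its copy number has been linked to anxiety-like behaviour in mice. The order of protein-coding genes around it in the RefSeq annotation of GRCm38 is Zfand3, Btbd9, Glo1, Dnah8, Glp1r, Umodl1 and Abcg1. Btbd9 encodes a BTB-domain protein studied in restless legs syndrome, Dnah8 a dynein heavy chain of the sperm flagellum, and Glp1r the receptor of glucagon-like peptide 1. Umodl1 encodes a uromodulin-like protein and Abcg1 a transporter that moves cholesterol out of cells. From general knowledge of the mm9 build, whose chromosome lengths the reads fit, Glo1 lies inside the core. No annotation in the files' coordinates was used, so counts are not given per gene, and the edges found below were not set against published breakpoints.

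The promoter of Glo1 is shown because the known duplication is named for this gene. It is the RefSeq sequence of GRCm38.p6, minus strand, from 250 bases before the gene's start to 50 after it, 5′ to 3′. Capitals mark its only CCAAT, a motif searched on both strands (as CCAAT and ATTGG) and present in 37.4% of 32851 promoters of the same length. No read was placed on it, and the match is a description of the sequence only. The promoters listed for Dnah8 and Glp1r held no CCAAT on either strand.
Glo1 promoter: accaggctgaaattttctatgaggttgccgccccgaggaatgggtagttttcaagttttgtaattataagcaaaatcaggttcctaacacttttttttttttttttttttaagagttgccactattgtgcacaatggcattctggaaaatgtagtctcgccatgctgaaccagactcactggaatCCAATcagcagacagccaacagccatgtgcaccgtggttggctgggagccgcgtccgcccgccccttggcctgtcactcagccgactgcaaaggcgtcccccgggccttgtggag

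The wild-type library was dense in the core and the mutant library was not. The core held 1890 distinct positions in the wild-type library, 37.8 per 10 kb, against 17.7 per 10 kb in the left flank and 19.4 in the right flank. In the mutant library it held 867, or 17.3 per 10 kb, against 16.6 in the left and 18.8 in the right flank. The mutant core thus lay between its 2 flanks, and the wild-type core lay far above both of its own. Measured within each library, which needs no scaling between them, core over flank density was 2.04 in the wild-type library (exact 95% interval 1.93 to 2.15) and 0.979 in the mutant library (0.908 to 1.05). All intervals reflect counting error alone and make no allowance for the way the block was chosen. Because the flanks differed, the wild-type level was 2.13 over the left flank alone (2.0 to 2.28) and 1.95 over the right flank alone (1.83 to 2.08).

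**Figure D1:**
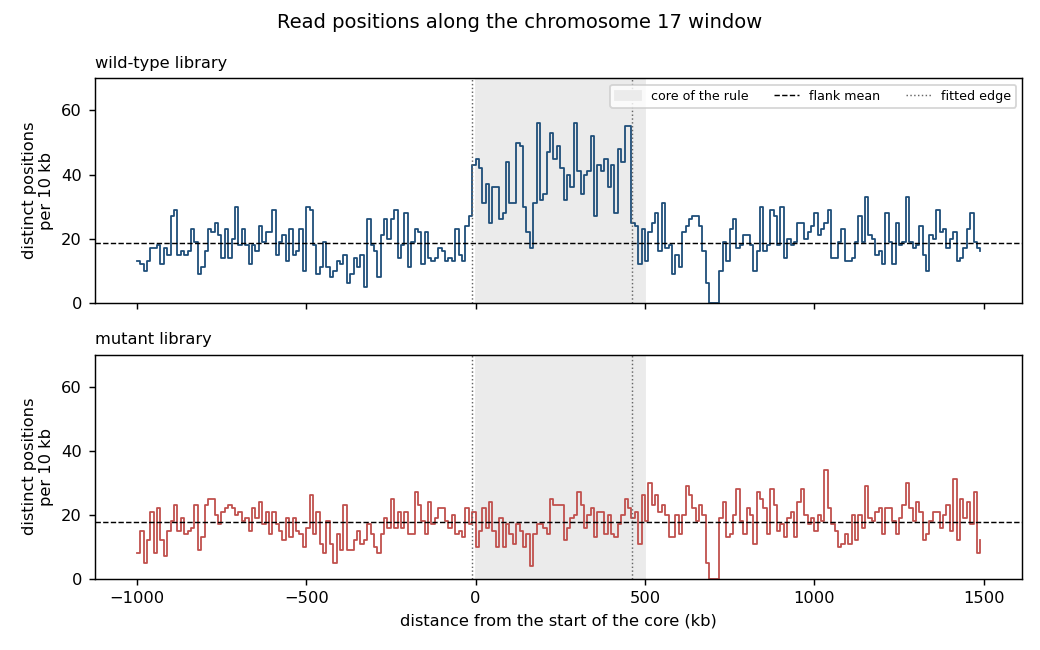
Distinct read positions per 10 kb bin (vertical axis) by distance from the start of the core in kb (horizontal axis), for the wild-type library (upper) and the mutant library (lower). Shading marks the core, the dashed line each library's flank mean and dotted lines the fitted edges. Wild-type core bins had a median of 38.5 positions against 18 in its flanks, while mutant bins had 17 against 18.

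For orientation, a sequence doubled on both homologous chromosomes has 2 times the density of single-copy sequence, and one doubled on 1 of them has 1.5 times. With the limits of the core, the wild-type interval held 2 and not 1.5, and the mutant interval held 1. These limits take in 38.2 kb at the level of the flank and leave 9.1 kb of the dense block in the flank. Both lower the wild-type level. The core was also chosen on these counts, so setting its level beside 1.5 and 2 is a description. With the edges fitted below, the wild-type level was 2.14 (2.02 to 2.26), an interval that held neither, and the mutant level 0.958 (0.886 to 1.03). Wild-type positions per bin varied 2.37 times as much as a Poisson count in this block and 2.18 times outside it (variance over mean). The within-library intervals make no allowance for this and are too narrow, so whether one just holds or just misses 2 decides nothing. In a ChIP library with no input library at hand, more copies of a stretch and more DNA recovered per copy cannot be told apart. Set against each other after scaling to the distinct positions on chromosomes 1 to 19 (2927228 mutant and 2821498 wild-type), the mutant to wild-type ratio of the core was 0.442 (0.408 to 0.479). Around the core the flanks had a ratio of 0.920 (0.878 to 0.964), and chromosome 17 outside the window had 0.987 (0.979 to 0.996). The flanks were thus slightly lower in the mutant library too, by far less than the core.

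The difference ran through nearly the whole core. A bin was called lower where the mutant was at least 1.5-fold below the wild type after scaling and both libraries together held 20 or more positions. Of the 50 core bins, 43 were lower by this rule (86%). Over all autosomal 10 kb bins 15.3% were, and in the flanks 31 of 188 bins were (16.5%). In the opposite direction, no core bin and 8 flank bins were at least 1.5-fold higher, against 13.9% of all autosomal bins. The share in the core was part of how it was chosen and is no test. The interval of a single bin lay wholly below 1 for 40 of the 50 core bins and for 4 of the 200 flank bins. These flank bins include the one from 30590001, which contains the left edge fitted below. The share over all autosomal bins was not counted by this criterion, so the 2 counts have no genome background beside them.

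**Figure D2:**
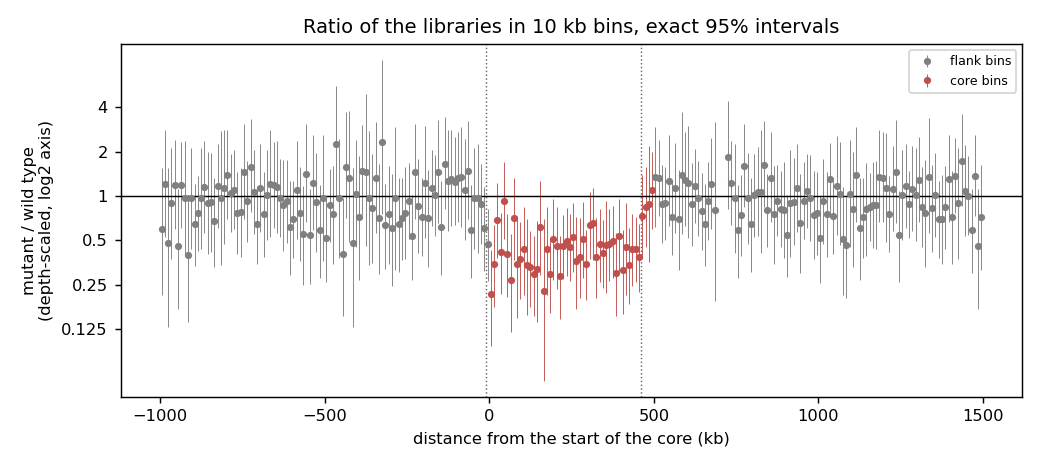
Ratio of mutant to wild type, scaled for depth, in each 10 kb bin (vertical axis, log2 scale) by distance from the start of the core in kb (horizontal axis), with exact 95% intervals. Bins with 0 positions in a library are left out. Core bins (red) had a median ratio of 0.437 and flank bins (grey) 0.964. The last core bins rise to the level of the flank, right of the second dotted line.

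With the positions of both strands, the right end of the block could be placed more finely than the 10 kb bins, and the left end less surely. The edges were fitted as the 2 points between which the split of positions between the libraries differed most, by maximum likelihood. Each has a support range of points whose log likelihood lay within 2 of the maximum. The left edge lay at 30590906 (support 30590378 to 30594178), 9.1 kb before the core. The right edge lay at 31061780 (support 31060608 to 31062432), 38.2 kb before the end of the core. The block between them, chr17:30590906-31061779, was 470.9 kb long, with a range of 466.4 to 472.1 kb from the support ranges. These ranges describe the likelihood and are not confidence intervals, and in simulated data some true edges fell outside them. The wild-type library alone, with no use of the mutant, placed the right edge at 31062001 and the left edge at 30577001, with support reaching to 30591001. The block so placed was 485 kb long, outside the range of lengths given above. Reverse-strand positions alone placed the left edge at 30572286, with support from 30565045 to 30593513, and forward-strand positions alone at 30590759. The right edge lay at 31061780 on reverse-strand positions alone, with support from 31053648 to 31091945. On forward-strand positions alone it lay at 31061968, with support from 31059029 to 31074965. Both of these ranges are wider than a 10 kb bin.

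The counts on either side of each edge are given as a description, since the edges were fitted to make this contrast as large as possible. In the 20 kb outside the left edge 48 mutant and 51 wild-type positions were found. In the 20 kb inside it there were 23 and 92, a ratio of 0.241 (0.146 to 0.384), against 0.907 (0.599 to 1.37) just outside. At the right edge the libraries had 39 and 108 positions in the last 20 kb inside, a ratio of 0.348 (0.235 to 0.506), and 41 and 41 in the 20 kb outside, a ratio of 0.964 (0.610 to 1.52). The wild-type count therefore changed at each edge. At the left edge the mutant count also changed, from 48 to 23, and at the right edge it hardly did. Both libraries were denser than their flank means just before the left edge, 1.36 times in the mutant and 1.37 times in the wild-type library.

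**Figure D3:**
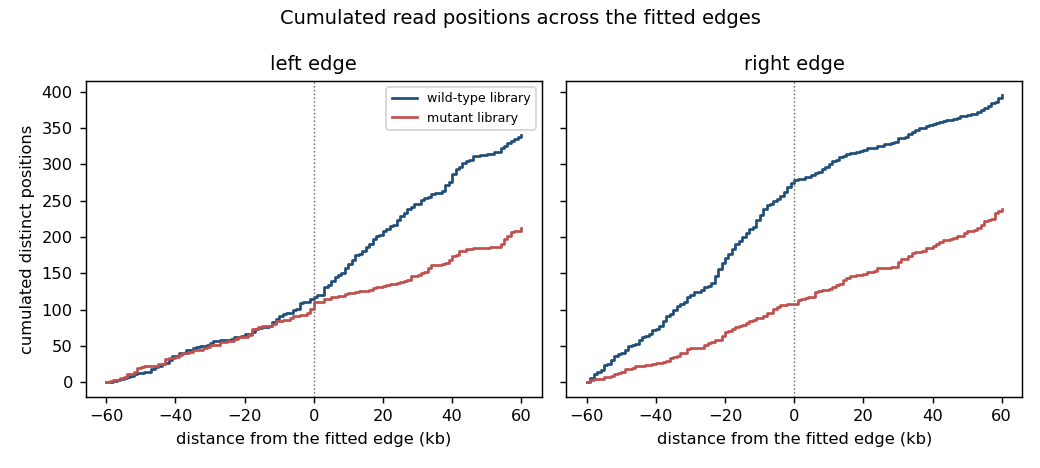
Distinct positions cumulated from 60 kb before to 60 kb after each fitted edge (vertical axis, counts), by distance from the edge in kb (horizontal axis). The 2 libraries climb together up to the left edge and part there. At the right edge the wild-type line bends from 108 positions in the last 20 kb inside to 41 in the first 20 kb outside.

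The bins at the core limits lie on a grid that does not depend on the fit. Left of the core, the bins from 30570001, 30580001 and 30590001 held 22, 17 and 21 mutant and 24, 27 and 43 wild-type positions. The third of these contains the fitted edge, and its ratio was 0.471 (0.265 to 0.811). Inside the left limit, the bins from 30600001, 30610001 and 30620001 held 10, 15 and 22 mutant and 45, 42 and 31 wild-type positions. The first had the lowest ratio of the core, 0.214 (0.0962 to 0.431). At the other end, the core bins from 31070001, 31080001 and 31090001 held 21, 11 and 26 mutant and 24, 12 and 23 wild-type positions, and the last had the highest ratio of the core, 1.09 (0.598 to 2.0). Beyond the limit, the bins from 31100001, 31110001 and 31120001 held 18, 30 and 23 mutant and 13, 22 and 25 wild-type positions. The last 38.2 kb of the core together held 77 mutant and 74 wild-type positions, a ratio of 1.0 (0.719 to 1.40). This stretch was at the level of the flank in both libraries.

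Of the 7 core bins that were not called lower, 4 therefore lay at or beyond the right edge. The bin from 31060001, which the edge crosses, held 19 and 25 positions, and the other 3 are those at the right core limit. The other 3 lay in the first 80 kb of the core, from 30620001 (22 mutant and 31 wild-type positions), 30640001 (24 and 25) and 30670001 (19 and 26). The interval of each of these 3 reached 1, and that from 30640001 had a ratio of 0.925 (0.506 to 1.69). Between the edges, 43 of 46 whole bins (93.5%) were lower.

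With the fitted edges as limits, the levels moved a little apart. The block held 802 mutant and 1857 wild-type positions, a ratio of 0.416 (0.383 to 0.452). The wild-type level divided by the mutant level, as a conditional odds ratio in which scaling cancels, was 2.23 (2.03 to 2.46), against 2.08 (1.89 to 2.29) with the limits of the core. The fitted edges maximise this contrast. With them, the wild-type level was 2.26 over the part of the window left of the block alone (2.11 to 2.41) and 2.03 over the part right of it (1.91 to 2.17), so the reference side decided whether the interval held 2. The mutant level was 1.02 over the left part (0.938 to 1.11) and 0.905 over the right part (0.832 to 0.982), the latter interval lying below 1. These within-library intervals make no allowance for uneven density along the window, so narrow misses of 1 or 2 decide nothing.

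Between the fitted edges, limits chosen after the data were seen, the split between the libraries was even to within counting error. If every bin shared 1 split, the Pearson dispersion would be near 1. It was 0.949 over the 46 whole bins of the block (95% range from the chi-square distribution 0.653 to 1.5) and 0.860 over the 202 whole bins outside it (0.713 to 1.06). In the block it was 1.04 (0.792 to 1.42) in 5 kb bins, 0.935 (0.559 to 1.87) in 20 kb bins and 0.975 (0.671 to 1.55) with every aligned read. Over the 50 core bins, which run past the right edge, it was 1.31 (0.915 to 2.04). There, 20 kb bins gave 1.76 (1.07 to 3.41) and every aligned read 1.48 (1.04 to 2.30), ranges that lie above 1. In 5 equal pieces of the block, from left to right, the ratio was 0.438, 0.356, 0.426, 0.457 and 0.399. The lowest, in the second piece (0.286 to 0.441), and the highest, in the fourth (0.381 to 0.546), had overlapping intervals. In the 5 pieces of 100 kb of the core the ratio was 0.435, 0.367, 0.424, 0.475 and 0.508, the last including the stretch beyond the edge.

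The density itself was less even than the split, and both libraries were thin at the same place. Positions per bin varied 2.37 times as much as a Poisson count in the wild-type block (variance over mean) and 1.42 times in the mutant block, against 2.18 and 1.93 outside it. This measure grows with the mean at equal relative unevenness, and the wild-type medians per bin were 40.5 in the block and 18 outside. The bins outside also include 3 at 0 in each library. The values are therefore not a like comparison of block and surroundings. The second of the 5 equal pieces was the thinnest in both libraries, with 12.6 mutant and 34.2 wild-type positions per 10 kb. The first piece had 15.7 and 34.6, so in the wild-type library these 2 pieces hardly differed. The thinnest bin of the block, from 30760001, had mutant and wild-type counts of 4 and 17. Most of the longest stretch of the block without a 5′ end fell in it, 6.94 kb in the mutant library from 30758878 and 5.34 kb in the wild-type library from 30760393. Across the 46 bins the counts of the libraries had a Pearson r of 0.473 and a Spearman rho of 0.435. Across the 202 bins outside the block they had 0.585 and 0.521. These bins share mappability and base composition between the libraries, and the values are descriptions.

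Bin by bin, the wild-type block stood largely clear of its surroundings. Of its 46 bins, 32 held more positions than the fullest wild-type bin outside the block in this window, which held 33. The share of all autosomal bins above 33 was not counted, so this is a comparison within the window only. The wild-type bins of the block ran from 17 to 56, with a median of 40.5 against 18 outside. None of the 46 mutant bins exceeded the fullest mutant bin outside (34), and 19 exceeded the mutant median outside, 18. Neighbouring 5′ ends in the block were a median of 154.5 bp apart in the wild-type library and 348 bp in the mutant library. Left of the block these medians were 339 and 386 bp, and right of it 305 and 313 bp. In the right flank, a stretch of 42.1 kb in the wild-type library, from 31282593, and 42.6 kb in the mutant library, from 31282357, held no 5′ end and left 3 bins at 0 in each.

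In 2 measures that played no part in choosing the block, it did not differ from its surroundings beyond counting error. Repeated reads, meaning all but 1 at each position, were 11.3% of the reads in the wild-type block (exact interval 9.99 to 12.8%) and 11.5% in the rest of the window (10.6 to 12.5%). In the mutant library they were 7.07% (5.45 to 8.99%) and 7.54% (6.73 to 8.41%). The libraries differed in this share over chromosomes 1 to 19 as well, at 11.6% in the wild-type and 8.22% in the mutant library. No position in the block held more than 6 reads in the wild-type or 4 in the mutant library. Forward-strand positions made up 51.7% of the wild-type block (49.4 to 54.0%) and 51.1% of the mutant block (47.6 to 54.6%), against 50.7% (49.1 to 52.3%) and 52.0% (50.4 to 53.7%) in the rest of the window. Each block interval for these 4 shares held the value of its surroundings.

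Against all autosomal windows of 500 kb, the core had a lower ratio than any window clear of it. Its wild-type density over flanks stood out less. Windows were moved by 100 kb and kept where the libraries together held 500 or more positions. A mutant level at least 1.5-fold below the wild type was found in 6 of 22954 windows (0.0261%), and all 6 overlapped the core. The core was chosen for this difference and the windows have its length, so the count is a description and no test. Shorter blocks are diluted in such windows, among them the run of 189.2 kb described below, with a ratio of 0.498. Among the 22945 windows that did not overlap the core, the lowest ratio was 0.693 and the central 95% ran from 0.848 to 1.27. The flanks' 0.920 lay inside that range. The highest ratio among these windows was 2.35, a larger fold in the opposite direction than the core's wild type over mutant of 2.26. A wild-type density at least 1.5 times that of flanks of 1000 kb was found in 3.2% of windows, and 156 of the windows elsewhere reached or passed the 2.04 of the core. In the mutant library 2.58% of windows reached 1.5 times their flanks, and none of those overlapping the core did.

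**Figure D4:**
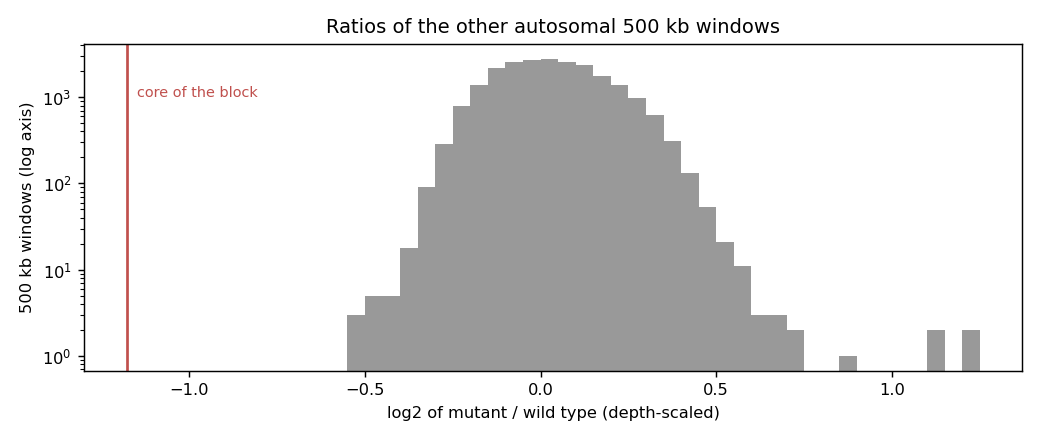
Number of autosomal 500 kb windows (vertical axis, log scale) by log2 of the depth-scaled mutant to wild-type ratio (horizontal axis), for the windows that do not overlap the core. The red line marks the core, at a ratio of 0.442, where the lowest other window had 0.693 and the highest 2.35.

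Outside this block, 2 more autosomal runs of adjacent 100 kb bins had differed between the libraries. Each bin of a run had to differ in the same direction, by a counting interval corrected for the number of bins. Single bins and weaker differences are not listed. The nearer of the 2 runs lay on the same chromosome, with edges fitted in the same way at chr17:27396231-27585412, a length of 189.2 kb. Its edges were less sure than those of the Glo1 block, with support from 27383145 to 27433393 (left) and 27566749 to 27591565 (right). This run was also denser in the wild-type library, at 1.76 times its flanks (1.62 to 1.92) against 0.983 in the mutant library (0.877 to 1.10), a ratio of 0.498 (0.436 to 0.569). Its wild-type interval lay below that of the Glo1 block at its fitted edges, 2.02 to 2.26. Neither of these intervals held 1.5 or 2, but both allow for counting error alone and not for uneven density. The 3.01 Mb between the 2 blocks had a ratio of 0.907 (0.873 to 0.942). This stretch contains nearly all of the left flank of the Glo1 block, so its closeness to the flanks' 0.920 is partly built in. The other run, chr2:77707599-77865054, with support for its right edge from 77864581 to 77885927, went the opposite way. There the mutant density was 6.86 times its flanks (6.42 to 7.33) and the wild-type density 1.85 times (1.65 to 2.07), so that neither library was at the level of its flanks. Of these 3 runs, the Glo1 block was the longest. No test of the differences between the runs was made, since all 3 were chosen on these counts.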

How the data were processed

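ChIP-seq reads of 1 mutant and 1 wild-type library were aligned by the authors with Bowtie, per the submitters' processing notes. No source used here gives its version, settings or filters. In the deposited files there is 1 read of 36 bp on each line, and the deposited score, 255 throughout, was not used. The series text names mouse reference 8. From general knowledge the read positions fit mm9, so coordinates are given as in the files, counted from 1, with the build uncertain. The GRCm38 tables gave gene order and the promoter only.

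Reads were reduced to distinct positions and scaled to those on chromosomes 1 to 19. Ratios carry exact Clopper-Pearson 95% intervals of the split of counts. Edges came from a binomial change-point likelihood, tested on simulated data. The wild-type library alone was fitted with Poisson counts per 1 kb. Dispersion is Pearson's chi-square over its degrees of freedom. Named bins are the 3 on each side of each core limit, the core bins with the highest and lowest ratio and the 5 pieces of 100 kb. Bins not called, the 5 equal pieces of the fitted block and the thinnest bin were named after their values were seen. The members and lists were chosen with earlier results of these data known. Alternatives covered repeated reads, strand, limits, flanks, scaling, bin size and fold. Tools were scipy 1.17.1, numpy 2.4.6 and pandas 2.3.3 in Python 3.11.15, with figures from matplotlib 3.10.9.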

Additional observations from a re-analysis of the deposited data

How the results depend on the processing

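Core and flank ratios and densities stayed within their main intervals under every alternative run. The core ratio ran from 0.416 at the fitted edges to 0.448 with scaling to the rest of chromosome 17, and the wild-type core over flank density from 1.98 (reverse strand) to 2.14 (medians of 10 kb bins). Fitted edges and medians were chosen after the data were seen. The left edge moved to 30572286 on reverse-strand positions alone (support 30565045 to 30593513) and to 30577001 in the wild-type library alone. On forward-strand positions alone it lay at 30590759 (support 30583553 to 30595974). The cause of the moves was not tested, and the wild-type library alone was fitted with a different likelihood. The right edge stayed within its main support range, but its own support on 1 strand alone was wider than a 10 kb bin. Core bins called lower made up 72% at a fold of 2 and 92% in 20 kb bins. The share over all autosomal bins, 15.3%, was counted only in 10 kb bins at a fold of 1.5, so these 2 values have no background beside them. Dispersion in the core reached 1.76 (1.07 to 3.41) in 20 kb bins and 1.48 (1.04 to 2.30) with every aligned read, ranges that exclude 1. At the fitted edges it lay between 0.935 and 1.04 in settings chosen after the data were seen, and every range held 1. Depth limits single bins, which held a median of 17 mutant positions in the core. No paired analysis was possible because each genotype has 1 library, which also means that none could be omitted.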
